A study of Mus musculus with 20 samples.

Results

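Matrix metalloproteases (MMPs), their tissue inhibitors (TIMPs), the ADAMTS proteases and the ADAMTS-like proteins were followed across 7 mouse cell groups by RNA sequencing. Members were the protein-coding genes whose symbol in the deposited annotation began with Mmp or Timp and a digit, or with Adamts, and no measured value was used to choose them. The rule found 51 of the 43432 genes in the count table, 23 of them Mmp, 4 Timp, 19 Adamts and 5 Adamtsl genes. Of the 51, 35 passed the filter on low counts and were tested, comprising 16 Mmp, 3 Timp, 12 Adamts and 4 Adamtsl genes.

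The study grew 5 lines that its labels call malignant transformed, each in 3 libraries, beside 2 groups that it names as their precursors. C12 was derived in vitro from peritoneal washing cells kept with SU3, a human glioma stem cell line, and is labelled as macrophages. The ih_CTC line is labelled as macrophages from a peritoneal xenograft, and ih_DCTC as dendritic cells from a co-culture of SU3 with bone marrow dendritic cells. The ih_STC_BM line is labelled as mesenchymal stem cells cultured from a tumour grown in a mouse whose bone marrow was damaged and reconstructed. The ih_BCTC line is labelled as oligodendrocytes recultured from an SU3 brain tumour, and it has no precursor group of its kind. The precursor groups were MDSC (myeloid-derived immunosuppressive cells, 3 libraries) and MSC (2 libraries of mesenchymal stem cells from the bone marrow of normal mice). All 7 groups carry the strain label Nude Mouse and share 1 treatment text, which speaks of monoclonal culture, and the culture medium, DMEM with fetal bovine serum, is stated for all of them but ih_BCTC. A line may therefore stand for 1 clone. The labels do not say that libraries of a group came from separate cultures, so the p-values measure the spread between these libraries.

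Total expected counts were 8794777 to 12400640 per library, and 67.42 to 77% of reads mapped. Reads in introns made up 1.02 to 8.52% in the lines, 9.64 to 10.36% in MDSC and 2.07 and 3.09% in MSC. The 3 MDSC libraries differed from each other by a chi-square per degree of freedom of 1.72 to 3.32, against 25.6 to 282 for pairs within the other groups. The library ih_DCTC 2 was closer to the 3 ih_BCTC libraries, at 13.0 to 23.1, than to ih_DCTC 1 and 3, at 171 and 84.4. Levels are given as CPM, the expected count of a gene relative to the TMM-scaled total of its library. The lineage named in a label was mostly not seen in the transcripts. The 8 pan-leukocyte markers summed to 1.95 to 21.9 CPM in the 15 line libraries, 5867 to 5939 CPM in MDSC and 2256 to 3339 CPM in MSC. The 10 mesenchymal markers summed to 2980 to 12050 CPM in the lines, 23.9 to 26.2 CPM in MDSC and 6028 to 6535 CPM in MSC. In ih_BCTC the 8 oligodendrocyte markers summed to 4.21 to 5.88 CPM, and Olig2, Sox10, Mog and Mobp were at 0 counts. MSC also carried macrophage transcripts, since 10 macrophage markers summed to 33.6 to 191.9 CPM in the lines, 2147 to 2159 CPM in MDSC and 4608 to 5453 CPM in MSC. The 10 neutrophil markers summed to 5.71 to 12.3 CPM in the lines, 38694 to 41314 CPM in MDSC, and 18.1 and 160.7 CPM in MSC. In such bulk RNA, fewer cells of a type and less RNA per cell cannot be told apart.

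As background, MMPs and ADAMTS proteases are zinc-dependent enzymes made as inactive precursors, which cut collagens, proteoglycans and other matrix proteins outside the cell. TIMPs bind the active enzymes and block them, and TIMP-2 also takes part in the activation of MMP-2 by the membrane-bound MMP-14. ADAMTS-like proteins resemble the non-catalytic part of ADAMTS proteases, lack the protease domain and bind fibrillin-rich microfibrils. In gliomas these enzymes are studied for their part in the spread of tumour cells through brain matrix.

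The inhibitor genes separated MDSC from all other groups. Timp1, Timp2 and Timp3 were each 3.47 or more log2 units higher in C12, ih_CTC and ih_DCTC than in MDSC, while most differences from MSC did not pass the test. Timp1, on chromosome X from 20870166 to 20874735, measured 67.4, 90.7 and 41.8 CPM in C12, 195, 166 and 151 CPM in ih_CTC, 334, 118 and 227 CPM in ih_DCTC, 348, 67.8 and 144 CPM in ih_STC_BM, and 122, 92.1 and 96.4 CPM in ih_BCTC. In MDSC it measured 0.331, 0.120 and 0.213 CPM, and in MSC 169 and 375 CPM. Every line library lay above every MDSC library, and C12 had the lowest line mean, with ih_STC_BM 2 inside its range. Timp1 rose by a log2 fold change of 8.14 ± 0.75 (SE) in C12, 9.50 ± 0.77 in ih_CTC and 9.91 ± 0.78 in ih_DCTC against MDSC (edgeR adjusted p 7.2e-08, 1.47e-08 and 1.04e-08). Against MSC it was lower in C12 by a log2 fold change of -2.03 ± 0.54 (edgeR adjusted p 0.00716), a call that ended without MSC 2 (adjusted p 0.142). It was also lower in ih_BCTC, at -1.40 ± 0.53 (edgeR adjusted p 0.0481), and leaving out any of 12 libraries ended that call (adjusted p 0.0559 to 0.463).

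Timp2, the inhibitor that also helps activate MMP-2, lies on chromosome 11 from 118301069 to 118355740. It measured 1290, 1353 and 897 CPM in C12, 648, 683 and 512 CPM in ih_CTC, 884, 417 and 523 CPM in ih_DCTC, 2268, 687 and 984 CPM in ih_STC_BM, and 313, 637 and 329 CPM in ih_BCTC, against 52.0, 53.4 and 58.8 CPM in MDSC and 839 and 603 CPM in MSC. The MDSC libraries were again lowest and did not overlap any other group. The log2 fold change against MDSC was 4.43 ± 0.46 in C12, 3.49 ± 0.44 in ih_CTC and 3.47 ± 0.44 in ih_DCTC (edgeR adjusted p 3.63e-07, 3.64e-06 and 3.72e-06). None of the 5 lines differed from MSC past the threshold, with log2 fold changes of -0.76 to 0.86. A line is set against the mean of the fitted log2 levels of the other 4 lines, so a line with very low levels weighs as much as one with high levels. By this measure ih_STC_BM was higher than the other 4 by 0.996 ± 0.30 on the log2 scale (edgeR adjusted p 0.0302), and this rested on ih_STC_BM 1, without which the adjusted p was 0.509.

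Timp3, which codes for the inhibitor that stays bound to the matrix and also blocks aggrecanases, lies on chromosome 10 from 86300372 to 86349506. It measured 51.6 to 122 CPM in C12, 66.7 to 70.5 CPM in ih_CTC, 89.6 to 142 CPM in ih_DCTC, 80.0 to 381 CPM in ih_STC_BM and 60.7 to 282 CPM in ih_BCTC. In MDSC it measured 1.81 to 3.01 CPM, and in MSC 119 and 152 CPM. It was higher than in MDSC by 5.26 ± 0.68 in C12, 4.93 ± 0.67 in ih_CTC and 5.60 ± 0.68 in ih_DCTC on the log2 scale (edgeR adjusted p 4.04e-06, 7.22e-06 and 2.2e-06), and no line passed the test against MSC. Timp4 was not tested, with at most 0.768 CPM in any library. Timp1, Timp3 and Timp4 overlap the synapsin genes Syn1, Syn3 and Syn2 on the opposite strand, and Timp2 overlaps BC100451 on the same strand. The labels do not state whether counting used strand, so reads could be shared at these and the overlaps named further on.

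The genes of the MMP-2 activation system followed the same division. Mmp2 codes for gelatinase A, which degrades type IV collagen of basement membranes, and lies on chromosome 8 from 92827328 to 92853417. It measured 208, 240 and 188 CPM in C12, 659, 667 and 870 CPM in ih_CTC, 688, 185 and 662 CPM in ih_DCTC, 1304, 727 and 233 CPM in ih_STC_BM, and 175, 204 and 334 CPM in ih_BCTC. The precursors measured 0.442, 1.32 and 0.852 CPM in MDSC and 115 and 108 CPM in MSC. All 15 line libraries exceeded all 5 precursor libraries. Against MDSC, Mmp2 was higher by 7.92 ± 0.72 in C12, 9.70 ± 0.76 in ih_CTC and 9.19 ± 0.75 in ih_DCTC on the log2 scale (edgeR adjusted p 6.38e-08, 1.04e-08 and 1.67e-08). Against MSC it was higher by 2.71 ± 0.64 in ih_CTC, 2.20 ± 0.62 in ih_DCTC and 2.76 ± 0.64 in ih_STC_BM (edgeR adjusted p 0.00297, 0.0105 and 0.00301). The differences of 0.93 ± 0.58 in C12 and 1.09 ± 0.59 in ih_BCTC did not pass. The ih_DCTC call against MSC ended without MSC 1 or without MSC 2 (adjusted p 0.0768 and 0.083). The ih_STC_BM call against MSC ended when only ih_STC_BM and MSC were fitted.

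Mmp14, the membrane-type protease that activates MMP-2 at the cell surface, lies on chromosome 14 from 54431604 to 54441258. It measured 89.6, 93.5 and 69.6 CPM in C12, 145, 161 and 222 CPM in ih_CTC, 435, 164 and 310 CPM in ih_DCTC, 666, 413 and 535 CPM in ih_STC_BM, and 145, 215 and 195 CPM in ih_BCTC, against 3.53, 3.73 and 2.77 CPM in MDSC and 116 and 214 CPM in MSC. C12 was the lowest line without overlap, and ih_STC_BM the highest, with 1 ih_DCTC library inside its range. Mmp14 was 4.65 ± 0.39, 5.71 ± 0.41 and 6.50 ± 0.43 log2 units above MDSC in C12, ih_CTC and ih_DCTC (edgeR adjusted p 2.79e-08, 3.75e-09 and 1.25e-09). Set against the other 4 lines, it was higher in ih_STC_BM by 1.66 ± 0.24 (edgeR adjusted p 0.0002) and lower in C12, at -1.68 ± 0.29 (edgeR adjusted p 0.000687). Against MSC it was higher in ih_STC_BM by 1.70 ± 0.39 (edgeR adjusted p 0.00293), a call that ended without MSC 1 (adjusted p 0.0696). That call also ended when only ih_STC_BM and MSC were fitted. The difference of -0.97 ± 0.36 between C12 and MSC lay at the threshold (edgeR adjusted p 0.0489), and 17 of the 20 libraries ended it when left out.

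**Figure D1:**
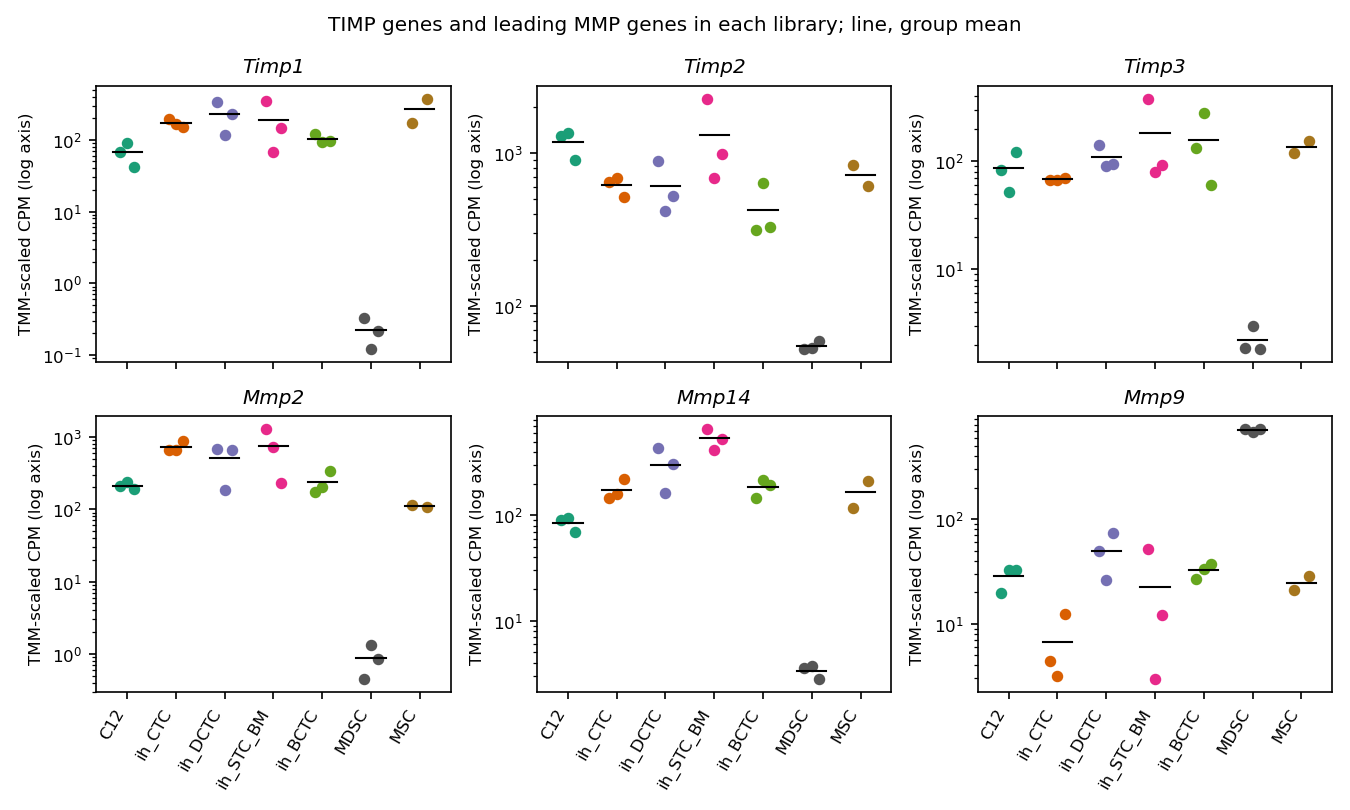
Each point is 1 library, in TMM-scaled CPM on a log axis, for 3 inhibitor and 3 protease genes, and the horizontal line is the group mean, of 3 libraries or 2 in MSC. The MDSC libraries lie below all others for Timp1, Timp2, Timp3, Mmp2 and Mmp14 and above all others for Mmp9, with 680 to 732 CPM.

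The proteases most abundant in MDSC are known from granulocytes. Mmp9 codes for gelatinase B, stored in neutrophil granules, and lies on chromosome 2 from 164940780 to 164955850. It measured 19.8, 32.9 and 32.8 CPM in C12, 4.42, 3.18 and 12.3 CPM in ih_CTC, 49.9, 25.95 and 73.2 CPM in ih_DCTC, 51.7, 2.94 and 12.02 CPM in ih_STC_BM, and 26.7, 33.2 and 37.4 CPM in ih_BCTC. In MDSC it measured 732, 680 and 719 CPM, and in MSC 21.04 and 28.4 CPM. The MDSC libraries lay above all others, and the highest line library was ih_DCTC 3. Against MDSC, Mmp9 was lower, with log2 fold changes of -4.64 ± 0.76 in C12, -6.74 ± 0.85 in ih_CTC and -3.84 ± 0.74 in ih_DCTC (edgeR adjusted p 5.92e-05, 3.15e-06 and 0.000256). No line differed from MSC past the threshold.

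Mmp25, a membrane-anchored protease of leukocytes on chromosome 17 from 23629458 to 23645269, had the same direction and a sharper contrast. It measured 0.314 to 0.658 CPM in C12, 0.192 to 0.599 CPM in ih_CTC and 0.301 to 0.374 CPM in ih_DCTC, against 83.5, 78.0 and 80.8 CPM in MDSC and 0 and 0.351 CPM in MSC. Its log2 fold changes against MDSC were -7.53 ± 0.67 in C12, -7.81 ± 0.67 in ih_CTC and -7.83 ± 0.68 in ih_DCTC (edgeR adjusted p 4.63e-08, 3.18e-08 and 3.33e-08). Mmp8, neutrophil collagenase, completed this set and is described with its gene cluster. The neutrophil marker sum was also highest in MDSC, at 38694 CPM or more there and at most 12.3 CPM in the lines. Its part in the differences was not tested.

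The other membrane-type genes were low. Mmp16, whose product also activates MMP-2, reached 1.06, 1.39 and 2.14 CPM in ih_CTC, 3.58, 3.55 and 0.880 CPM in ih_STC_BM, and 1.56 and 11.2 CPM in MSC. It had 0 counts in ih_DCTC, ih_BCTC and MDSC and 1 count in C12. Mmp16 was higher in ih_CTC than in MDSC by at least 13.8-fold, from 53 counts against a floor of 3 counts over the group (edgeR adjusted p 0.00214). Against the other 4 lines it was higher in ih_STC_BM by 5.58 ± 0.75 and in ih_CTC by 4.57 ± 0.78 on the log2 scale (edgeR adjusted p 0.000705 and 0.0036), sizes that depend on the prior count because other lines had 0 counts. Mmp17, coding for a membrane-type protease held by a lipid anchor, measured 2.12, 1.88 and 5.62 CPM in ih_DCTC and 0.123 to 1.72 CPM in the other lines, against 6.77 and 4.65 CPM in MSC. Against MSC it was lower in ih_CTC, at -3.16 ± 0.74, and in ih_STC_BM, at -3.06 ± 0.74 (edgeR adjusted p 0.00279 and 0.00434). It was also lower in C12, at -2.30 ± 0.71, and in ih_BCTC, at -1.98 ± 0.70 (edgeR adjusted p 0.0186 and 0.0336). The C12 call ended without C12 3 or MSC 1 (adjusted p 0.0568 to 0.115) and the ih_BCTC call without any 1 ih_BCTC or MSC library (adjusted p 0.0609 to 0.184). The ih_STC_BM call ended when only ih_STC_BM and MSC were fitted. Mmp15 and Mmp24 were not tested.

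Summed per kb of exon, so that genes of different length can be added, the mean ratio of TIMP to MMP transcripts was above 1 in every line and far below it in MDSC. The ratio of summed TIMP to summed MMP level was 3.04 ± 0.61 in C12, 1.33 ± 0.33 in ih_CTC, 1.27 ± 0.505 in ih_DCTC, 1.54 ± 0.66 in ih_STC_BM and 1.74 ± 0.66 in ih_BCTC (SD, n = 3 each). It was 0.0321 ± 0.00189 in MDSC (SD, n = 3) and 0.697 and 2.19 in the 2 MSC libraries. Single libraries of ih_CTC, ih_DCTC, ih_STC_BM and ih_BCTC lay below 1, the lowest at 0.694 in ih_DCTC. The summed MMP level was 128 ± 15.1 CPM per kb in C12, 277 ± 42.5 in ih_CTC, 385 ± 215 in ih_DCTC, 366 ± 173 in ih_STC_BM and 152 ± 46.2 in ih_BCTC, against 454 ± 9.02 CPM per kb in MDSC (SD, n = 3 each). Different genes made up these sums. Mmp2 gave 39.5 to 78.5% of the summed MMP level in the lines, Mmp8 and Mmp9 gave 50.3 and 44.2% in MDSC, and Mmp12 gave 55.1% in MSC. Timp1 and Timp2 together carried most of the TIMP level in the lines, with Timp2 at 78% in C12 and Timp1 at 60.1% in ih_DCTC, while Timp2 made up 96.4% of the small TIMP level in MDSC.

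**Figure D2:**
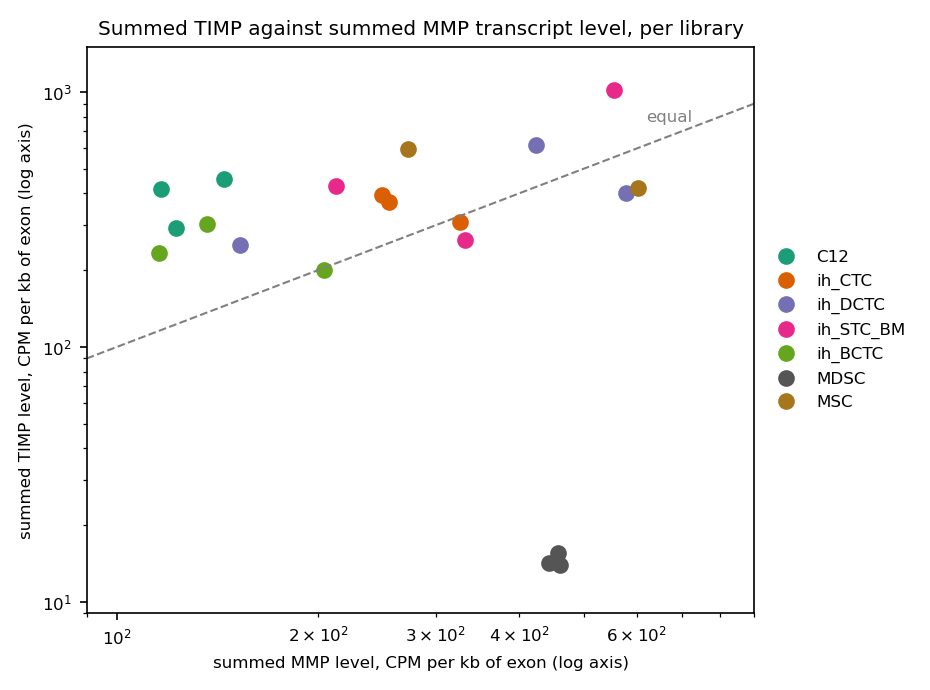
Each point is 1 library, with the summed level of 23 Mmp genes on the x axis and of 4 Timp genes on the y axis, both in CPM per kb of exon on log axes, and the dashed line marks equal sums. The 3 MDSC libraries sit at 13.95 to 15.56 CPM per kb on the TIMP axis, below all other libraries.

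A cluster of 10 Mmp genes spans 427 kb of chromosome 9, from 7272514 to 7699585 in the deposited annotation, and contains 1 other protein-coding gene. Its members code for collagenases (Mmp1a, Mmp1b, Mmp8, Mmp13), stromelysins (Mmp3, Mmp10), macrophage elastase (Mmp12), matrilysin (Mmp7), enamelysin (Mmp20) and Mmp27. These neighbours were high in different groups. Mmp3, Mmp10 and Mmp13 were highest among the lines in ih_DCTC and next in ih_BCTC, Mmp8 was high in MDSC, and Mmp12, Mmp13 and Mmp27 were high in MSC. Mmp7 and Mmp20 had 0 counts in all 20 libraries, which allows up to 0.0833 CPM over the ih_BCTC group and up to 0.143 CPM over MSC. Mmp1a and Mmp1b, mouse counterparts of interstitial collagenase and near copies of each other, had 2 and 4 counts in all.

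The proximal promoters of cluster members are shown because genes with different patterns lie side by side here. Each sequence is the RefSeq window of 300 bases on GRCm38.p6, from 250 bases before the annotated transcript start to 50 after it, on the plus strand, which is also the gene strand. Capitals mark sequence matches only. They show the motif of the transcription factor AP-1, searched as TGANTCA on both strands, and the TATA box motif, searched as TATAAA on the gene strand. The windows are chr9:7445572-7445871 for Mmp3, chr9:7502092-7502391 for Mmp10, chr9:7272264-7272563 for Mmp13, chr9:7347124-7347423 for Mmp12 and chr9:7558179-7558478 for Mmp8.
Mmp3: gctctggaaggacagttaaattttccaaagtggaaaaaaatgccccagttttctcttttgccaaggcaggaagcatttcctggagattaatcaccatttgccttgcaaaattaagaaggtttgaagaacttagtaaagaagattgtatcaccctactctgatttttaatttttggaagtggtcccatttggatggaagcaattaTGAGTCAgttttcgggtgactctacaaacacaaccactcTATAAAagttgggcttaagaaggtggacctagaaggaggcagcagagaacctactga
Mmp10: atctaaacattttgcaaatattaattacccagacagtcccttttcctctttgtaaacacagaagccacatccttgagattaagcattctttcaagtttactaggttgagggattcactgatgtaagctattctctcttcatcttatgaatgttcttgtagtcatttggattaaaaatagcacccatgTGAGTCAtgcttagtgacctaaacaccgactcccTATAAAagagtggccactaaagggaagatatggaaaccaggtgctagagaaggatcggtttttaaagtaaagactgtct
Mmp13: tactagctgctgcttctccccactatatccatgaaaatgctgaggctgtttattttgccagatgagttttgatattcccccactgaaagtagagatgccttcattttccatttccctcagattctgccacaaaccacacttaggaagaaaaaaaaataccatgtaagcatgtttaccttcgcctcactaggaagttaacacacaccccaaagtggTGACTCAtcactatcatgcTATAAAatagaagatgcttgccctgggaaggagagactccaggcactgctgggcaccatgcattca
Mmp12: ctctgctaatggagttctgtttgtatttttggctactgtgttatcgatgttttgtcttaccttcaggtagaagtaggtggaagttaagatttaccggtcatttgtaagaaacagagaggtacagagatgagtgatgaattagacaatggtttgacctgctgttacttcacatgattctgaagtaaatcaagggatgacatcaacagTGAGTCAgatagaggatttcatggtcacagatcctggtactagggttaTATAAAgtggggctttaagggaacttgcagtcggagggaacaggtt
Mmp8: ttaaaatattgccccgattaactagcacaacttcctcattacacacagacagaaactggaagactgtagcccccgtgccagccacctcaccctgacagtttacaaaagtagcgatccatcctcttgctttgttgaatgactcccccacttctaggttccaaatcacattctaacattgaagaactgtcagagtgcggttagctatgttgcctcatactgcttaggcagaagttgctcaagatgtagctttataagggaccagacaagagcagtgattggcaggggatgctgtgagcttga
In Mmp3, Mmp10 and Mmp12 the AP-1 match reads TGAGTCA and begins at -46, -63 and -44 relative to the window's start site, and in Mmp13 it reads TGACTCA and begins at -35. The TATAAA match begins at -29 in Mmp10, -16 in Mmp13 and -7 in Mmp3, and at 5, after the window's start site, in Mmp12. Whether these matches act as TATA boxes was not tested. A window of Mmp8 holds neither motif, nor does that of Mmp27 or the other window of Mmp12. Over the whole cluster, 8 of 10 genes had a window with both motifs. Of 32851 mouse windows, 7.81% hold TGANTCA, 8.32% hold TATAAA and 0.995% hold both. Among the 26 other members with a window, 0 hold TGANTCA and 3 hold TATAAA. Mmp7, Mmp20, Mmp1a and Mmp1b also hold both motifs and were at or near 0 counts.

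Mmp3 codes for stromelysin-1, which degrades proteoglycans and fibronectin and activates other MMPs. It measured 0.989, 2.30 and 0.862 CPM in C12, 9.04, 5.63 and 5.48 CPM in ih_CTC, 42.0, 43.9 and 276 CPM in ih_DCTC, 0.617, 0 and 0.147 CPM in ih_STC_BM, and 14.8, 11.01 and 29.1 CPM in ih_BCTC. In MDSC it measured 0.110, 0.120 and 0.107 CPM, and in MSC 0 and 0.439 CPM. The ih_DCTC libraries lay above all others, ih_BCTC above the remaining lines, and ih_STC_BM below the other lines. Against the other 4 lines, Mmp3 was higher in ih_DCTC by 5.55 ± 0.49 and lower in ih_STC_BM, at -5.54 ± 0.92, on the log2 scale (edgeR adjusted p 2.14e-06 and 0.000782). For ih_BCTC the log2 difference from the other 4 lines was 2.15 ± 0.52 (edgeR adjusted p 0.0156), a call that ended without ih_BCTC 3 (adjusted p 0.146). On the linear scale ih_BCTC averaged 18.3 CPM, against 32.2 CPM in the other 4 lines, where ih_DCTC was higher. In C12 it was lower, at -2.51 ± 0.73 (edgeR adjusted p 0.0243), until C12 1, C12 3 or ih_STC_BM 1 was left out (adjusted p 0.0619 to 0.225).

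Against MDSC, which held 3 Mmp3 counts in all, Mmp3 was 1092-fold higher in ih_DCTC (95% counting interval 373 to 5297), 59.0-fold in ih_CTC (19.9 to 288) and 11.8-fold in C12 (3.77 to 59.6). The edgeR adjusted p values were 7.56e-07, 0.000219 and 0.0176, and the C12 call ended without C12 2 or MDSC 3 (adjusted p 0.0736 and 0.0501). Against MSC, Mmp3 was higher by 8.94 ± 1.23 in ih_DCTC, 6.22 ± 1.15 in ih_BCTC and 4.77 ± 1.12 in ih_CTC (edgeR adjusted p 2.43e-05, 0.000381 and 0.0031). Leaving out MSC 1 ended the ih_CTC call (adjusted p 0.0505).

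Mmp13, coding for collagenase-3, which cuts type II collagen, measured 1.32, 1.10 and 0.941 CPM in C12, 1.54, 1.22 and 1.37 CPM in ih_CTC, 31.8, 49.2 and 264 CPM in ih_DCTC, 0.370, 1.93 and 0.147 CPM in ih_STC_BM, and 15.2, 9.98 and 60.8 CPM in ih_BCTC. It measured 0.773, 0.721 and 0.959 CPM in MDSC, and 233 and 105 CPM in MSC. The ih_DCTC, ih_BCTC and MSC libraries lay above all 12 others, and ih_DCTC and ih_BCTC overlapped each other. The log2 difference of Mmp13 from the other 4 lines was 5.52 ± 0.52 in ih_DCTC and 3.01 ± 0.53 in ih_BCTC (edgeR adjusted p 4.12e-06 and 0.00175), and the ih_BCTC call ended without ih_BCTC 3 (adjusted p 0.0857). On the linear scale ih_BCTC averaged 28.7 CPM, against 29.5 CPM in the other 4 lines. Against MDSC it was higher in ih_DCTC by 7.11 ± 0.99 (edgeR adjusted p 9.56e-06), and did not pass the test in C12 or ih_CTC. Against MSC it was lower by log2 fold changes of -7.23 ± 0.996 in C12, -6.93 ± 0.97 in ih_CTC and -7.58 ± 1.02 in ih_STC_BM (edgeR adjusted p 2.71e-05, 2.88e-05 and 2.14e-05), and the -0.56 ± 0.79 of ih_DCTC did not pass. In ih_BCTC it was lower at -2.56 ± 0.80 (edgeR adjusted p 0.0187), until ih_BCTC 1, ih_BCTC 2 or MSC 1 was left out (adjusted p 0.0721 to 0.184).

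Mmp10, coding for stromelysin-2, was lower in level. It measured 4.98, 5.04 and 11.8 CPM in ih_DCTC and 7.06, 0.430 and 7.41 CPM in ih_BCTC, against 0.342 to 0.653 CPM in ih_CTC, at most 0.110 CPM in C12, at most 0.120 CPM in MDSC and 0.417 and 1.05 CPM in MSC. The 3 ih_STC_BM libraries had 0 counts. The library ih_BCTC 2 lay with ih_CTC and below the other ih_BCTC libraries. Mmp10 was higher than in the other 4 lines by 5.04 ± 0.65 in ih_DCTC and 4.36 ± 0.67 in ih_BCTC (edgeR adjusted p 0.00014 and 0.000819), sizes that depend on the prior count because ih_STC_BM had 0 counts. Against MDSC, with 2 counts in all, it was 98.0-fold higher in ih_DCTC (95% counting interval 26.8 to 814, edgeR adjusted p 0.000146). Without ih_DCTC 2, the calls of Mmp3, Mmp10 and Mmp13 in ih_DCTC against MDSC and against the other 4 lines held.

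Mmp12, macrophage elastase, measured 0.0861 to 1.85 CPM in 14 line libraries and 14.1 CPM in ih_STC_BM 2, against 1.88, 1.44 and 1.39 CPM in MDSC and 2844 and 648 CPM in MSC. Its log2 fold changes against MSC were -12.18 ± 1.21 in C12, -11.66 ± 1.17 in ih_CTC, -12.04 ± 1.2 in ih_DCTC, -8.31 ± 1.01 in ih_STC_BM and -13.05 ± 1.26 in ih_BCTC (edgeR adjusted p 7.6e-07, 6.87e-07, 6.43e-07, 6.81e-06 and 3.9e-07). MDSC was also below MSC, by a log2 fold change of -10.11 ± 1.10 (edgeR adjusted p 1.34e-06). The macrophage marker sum was highest in MSC too, at 5453 CPM in MSC 1 and 4608 CPM in MSC 2. Its part in the Mmp12 difference was not tested. Mmp12 overlaps Mmp1b on the opposite strand, and Mmp1b had 4 counts in all libraries together.

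Mmp8, neutrophil collagenase, measured at most 1.62 CPM in any line library (ih_STC_BM 2), against 557, 549 and 554 CPM in MDSC and 3.44 and 38.1 CPM in MSC. The groups did not overlap, apart from the low line libraries among themselves. It was lower in C12, at -11.40 ± 1.07, and in ih_CTC, at -12.06 ± 1.11, than in MDSC (edgeR adjusted p 9.65e-08 and 7.1e-08). In ih_DCTC, with 1 count against 14807 in MDSC, the level was 17900-fold lower (95% counting interval 3212 to 707059, edgeR adjusted p 5.53e-08). MSC 2, the library with more Mmp8, was also the MSC library with more of the neutrophil markers, at 160.7 against 18.1 CPM. Mmp27, a little-studied member, had 2 counts in all 15 line libraries, against 1.07, 2.12 and 0.746 CPM in MDSC and 11.2 and 33.2 CPM in MSC. It passed the test as lower in all lines compared with MDSC or MSC, by at least 13.5-fold in C12 against MDSC (edgeR adjusted p 0.00073) and at least 191-fold in ih_STC_BM against MSC (edgeR adjusted p 4.59e-05). AC115689.1 overlaps Mmp27 on the same strand.

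**Figure D3:**
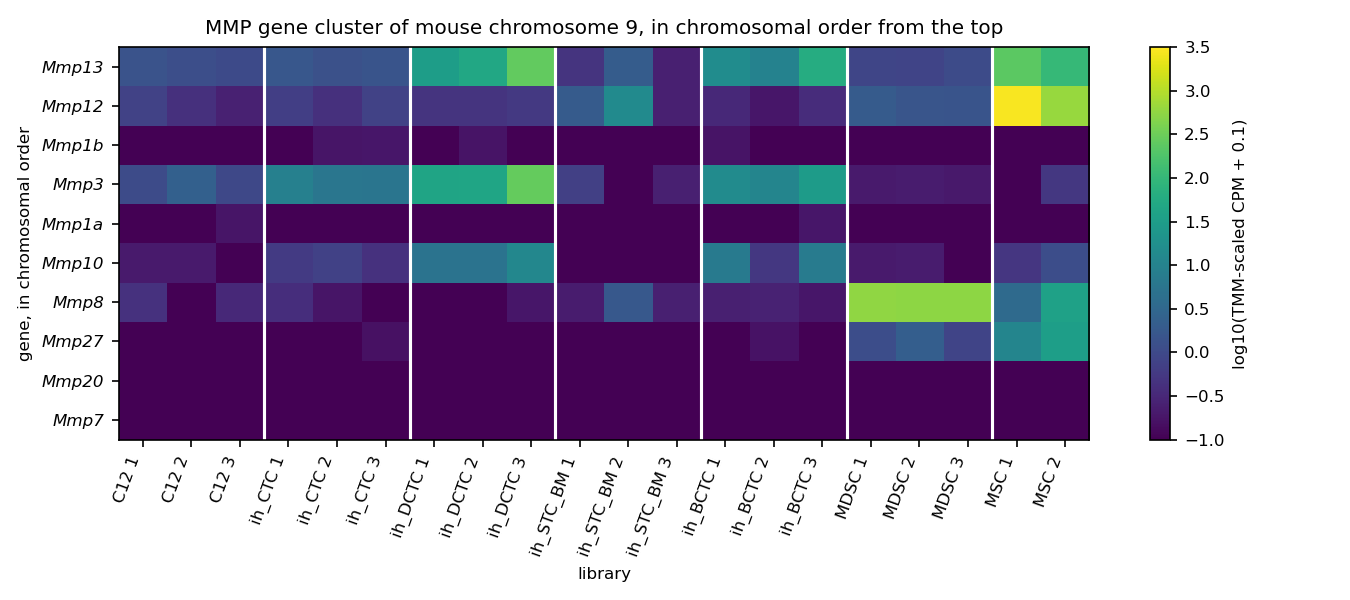
Levels of the 10 clustered Mmp genes, in chromosomal order from the top, in the 20 libraries, as log10 of TMM-scaled CPM plus 0.1 in colour. Mmp13 and Mmp3 are brighter in ih_DCTC and ih_BCTC than in the other lines. Mmp8 is brightest in MDSC, Mmp12 and Mmp13 are bright in MSC, and Mmp10 reaches at most 11.8 CPM.

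The remaining MMP genes lie elsewhere in the genome. Mmp11 codes for stromelysin-3, known from tumour stroma. It measured 30.4, 54.2 and 78.9 CPM in C12, 18.1, 19.3 and 26.5 CPM in ih_CTC, 224, 25.7 and 92.7 CPM in ih_DCTC, 88.8, 93.0 and 107 CPM in ih_STC_BM, and 21.1, 29.3 and 33.3 CPM in ih_BCTC, against 0.994, 1.44 and 0.746 CPM in MDSC and 21.7 and 10.7 CPM in MSC. All line libraries lay above MDSC. Against MDSC, Mmp11 was higher by 5.68 ± 0.67 in C12, 4.32 ± 0.65 in ih_CTC and 6.74 ± 0.70 in ih_DCTC (edgeR adjusted p 1.59e-06, 2.22e-05 and 3.04e-07). Against MSC it was higher by 2.57 ± 0.65 in ih_STC_BM and 2.82 ± 0.66 in ih_DCTC (edgeR adjusted p 0.00563 and 0.00287), and without MSC 2 both calls ended (adjusted p 0.0866 and 0.0545). It was also higher in C12, by 1.75 ± 0.62 (edgeR adjusted p 0.0387), a call that ended without C12 2, C12 3, MSC 1 or MSC 2 (adjusted p 0.0526 to 0.267).

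Mmp28, coding for epilysin, lies on chromosome 11 from 83440768 to 83463071 and stood out in C12. It measured 34.7, 52.3 and 35.8 CPM in C12, 2.02, 2.14 and 5.42 CPM in ih_CTC, 11.6, 5.66 and 18.9 CPM in ih_DCTC, 7.62, 10.1 and 23.4 CPM in ih_STC_BM, and 5.21, 6.11 and 10.3 CPM in ih_BCTC, against 0.259, 0.982 and 1.04 CPM in MDSC and 1.87 and 1.62 CPM in MSC. The C12 libraries overlapped with no other group. Mmp28 was higher in C12 than in the other 4 lines by 2.38 ± 0.36 (edgeR adjusted p 0.000178), than in MDSC by 5.75 ± 0.67 (edgeR adjusted p 1.28e-06) and than in MSC by 4.56 ± 0.73 (edgeR adjusted p 0.000124). It overlaps 1700020L24Rik on the opposite strand.

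Mmp19 was expressed in every library, at 9.42 to 60.6 CPM in the lines, 20.2 to 24.5 CPM in MDSC and 81.6 and 45.0 CPM in MSC. It was higher in ih_CTC than in MDSC by 1.16 ± 0.35 (edgeR adjusted p 0.00973) and lower than in MSC in ih_BCTC, ih_STC_BM and ih_DCTC, at -1.97 ± 0.39, -1.70 ± 0.39 and -1.17 ± 0.38 (edgeR adjusted p 0.000678, 0.00268 and 0.0256). Without MSC 1 the ih_STC_BM and ih_DCTC calls ended (adjusted p 0.0748 and 0.353), and the ih_DCTC call also ended without ih_DCTC 2 (adjusted p 0.0946). Mmp23, whose product is a membrane-anchored protease without the usual hemopexin domain, measured at most 4.90 CPM in the lines (ih_DCTC 3) and at most 0.442 CPM in MDSC, against 55.8 and 39.8 CPM in MSC. It was lower than in MSC in all 5 lines, by log2 fold changes of -7.87 to -4.25 (edgeR adjusted p 0.000102 or less).

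Per kb of exon, Adamts7 had the highest mean level of the ADAMTS protease genes in C12, ih_CTC and ih_DCTC. The highest was Adamts1 in ih_STC_BM, ih_BCTC and MSC, and Adamts10 in MDSC. Some of these leads were small. Adamts1 averaged 13.5 CPM per kb in MSC, against 13.3 for Adamts2, and 14.6 in ih_BCTC, against 13.4 for Adamts7. In ih_DCTC, Adamts7 averaged 21.6 CPM per kb, against 19.4 for Adamts1. Adamts1 belongs to the aggrecanases. These enzymes cleave aggrecan and versican, and Adamts1 (chromosome 16 from 85793827 to 85803113) also has anti-angiogenic activity. It measured 11.7, 10.96 and 33.1 CPM in C12, 64.2, 70.03 and 123 CPM in ih_CTC, 82.1, 101 and 126 CPM in ih_DCTC, 93.6, 392 and 27.6 CPM in ih_STC_BM, and 61.9, 106 and 64.5 CPM in ih_BCTC. The precursors measured 0.883, 0.962 and 2.02 CPM in MDSC and 68.0 and 74.7 CPM in MSC. The MDSC libraries were lowest, and C12 lay below the other lines but for ih_STC_BM 3. Adamts1 was higher than in MDSC by 3.83 ± 0.78 in C12, 6.03 ± 0.83 in ih_CTC and 6.30 ± 0.84 in ih_DCTC (edgeR adjusted p 0.000417, 9.17e-06 and 6.17e-06). It was lower in C12 than in the other 4 lines, at -2.48 ± 0.61 (edgeR adjusted p 0.00925), until C12 1 or C12 2 was left out (adjusted p 0.0656 and 0.0844). In ih_STC_BM it was higher, at 1.52 ± 0.46 (edgeR adjusted p 0.0319), but without ih_STC_BM 2 the difference was -0.0013 and the adjusted p 1. Leaving out C12 1, ih_CTC 1, ih_CTC 2 or ih_BCTC 1 also ended that call (adjusted p 0.0503 or more).

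Adamts4 and Adamts5, the main aggrecanases of cartilage, differed in pattern. Adamts4 measured 3.67 to 20.5 CPM in the lines, against 0.107 to 0.120 CPM in MDSC, with 3 counts in all, and 5.10 and 8.87 CPM in MSC. It was 132-fold higher than MDSC in ih_DCTC (95% counting interval 45.0 to 644), 64.2-fold in ih_CTC (21.7 to 313) and 55.9-fold in C12 (18.8 to 273), with edgeR adjusted p values of 6.72e-08, 5.39e-07 and 7.37e-07. Adamts5, near Adamts1 on chromosome 16 (85858170 to 85901125), measured 50.2, 68.4 and 93.7 CPM in ih_CTC, against 1.64 to 11.9 CPM in C12, 8.34 to 34.2 CPM in ih_DCTC, 3.08 to 17.9 CPM in ih_BCTC, and 14.4, 72.0 and 1.91 CPM in ih_STC_BM. The precursors measured 0.959 to 1.33 CPM in MDSC and 88.0 and 51.3 CPM in MSC. The ih_CTC libraries overlapped only ih_STC_BM 2 among the lines. Adamts5 was higher in ih_CTC than in the other 4 lines by 2.40 ± 0.61 (edgeR adjusted p 0.0181), a call that ended without ih_CTC 2 or ih_CTC 3 (adjusted p 0.0687 to 0.0887), and higher than in MDSC by 5.87 ± 1.13 (edgeR adjusted p 0.000271).

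Adamts9 and Adamts15 also belong to the hyalectan-cleaving group. Adamts9 measured 1.88 to 2.96 CPM in C12, 8.48 to 16.4 CPM in ih_CTC, 1.25 to 15.4 CPM in ih_DCTC, 0.880 to 5.58 CPM in ih_STC_BM and 9.90 to 10.3 CPM in ih_BCTC, against 0.213 to 0.552 CPM in MDSC and 8.54 and 10.98 CPM in MSC. It was higher than in MDSC by 4.996 ± 0.80 in ih_CTC, 4.28 ± 0.79 in ih_DCTC and 2.49 ± 0.79 in C12 (edgeR adjusted p 4.79e-05, 0.000184 and 0.0117), and the C12 call ended without MDSC 3 (adjusted p 0.0518). Adamts15 stayed at or under 2.27 CPM and had 0 counts in MDSC. It was at least 13.0-fold higher in ih_DCTC and at least 10.1-fold higher in ih_CTC than in MDSC (edgeR adjusted p 0.00439 and 0.00626).

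The procollagen N-propeptidases, which trim fibrillar procollagens, went different ways. Adamts14 (chromosome 10 from 61197112 to 61273438) measured 22.4, 22.0 and 30.6 CPM in C12, 51.2, 56.5 and 48.9 CPM in ih_CTC, 29.5, 52.7 and 43.8 CPM in ih_DCTC, 80.6, 89.9 and 19.2 CPM in ih_STC_BM, and 41.0, 43.5 and 46.7 CPM in ih_BCTC. It measured 10.6, 11.5 and 12.3 CPM in MDSC and 3.33 and 9.04 CPM in MSC, so all line libraries lay above both precursors. Against MSC its log2 fold changes were 2.01 ± 0.52 in C12, 3.07 ± 0.54 in ih_CTC, 2.76 ± 0.53 in ih_DCTC, 3.35 ± 0.55 in ih_STC_BM and 2.81 ± 0.54 in ih_BCTC (edgeR adjusted p 0.00613, 0.000277, 0.000655, 0.000162 and 0.000507). The C12 call ended without MSC 1 (adjusted p 0.108). Against MDSC it was higher in ih_CTC and ih_DCTC, by 2.18 ± 0.44 and 1.87 ± 0.44 (edgeR adjusted p 0.000442 and 0.00146). The C12 difference from MDSC, 1.13 ± 0.43 (edgeR adjusted p 0.0314), ended without C12 3 or any 1 MDSC library (adjusted p 0.0624 to 0.0878).

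Adamts2, by contrast, measured 3.25 to 59.3 CPM in the lines, against 0.331 to 0.746 CPM in MDSC and 103 and 146 CPM in MSC. It was lower than in MSC by log2 fold changes of -2.98 ± 0.68 in C12, -2.44 ± 0.67 in ih_CTC, -3.16 ± 0.68 in ih_DCTC and -3.96 ± 0.70 in ih_BCTC (edgeR adjusted p 0.00252, 0.0088, 0.00159 and 0.000264), and the ih_CTC call ended without MSC 2 (adjusted p 0.059). Against MDSC it was higher by 4.61 ± 0.79 in ih_DCTC, 5.33 ± 0.80 in ih_CTC and 4.78 ± 0.79 in C12 (edgeR adjusted p 8.38e-05, 2.18e-05 and 5.86e-05). Adamts3 was low, with 0 counts in C12 and 0.872, 1.28 and 6.53 CPM in ih_DCTC, against 3.09, 1.80 and 2.24 CPM in MDSC. It was at least 24.7-fold lower in C12 than in MDSC (edgeR adjusted p 0.000366), and higher in ih_DCTC than in the other 4 lines, at 4.17 ± 0.68 (edgeR adjusted p 0.000996), a size that depends on the prior count.

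Adamts7 and Adamts12 code for proteases that cleave cartilage oligomeric matrix protein. Adamts7, on chromosome 9 from 90163069 to 90208071, measured 55.1, 63.4 and 78.1 CPM in C12, 186, 187 and 130 CPM in ih_CTC, 145, 75.8 and 187 CPM in ih_DCTC, 43.7, 48.4 and 23.5 CPM in ih_STC_BM, and 64.5, 63.7 and 125 CPM in ih_BCTC. It measured 0.110, 0.361 and 0.107 CPM in MDSC and 3.64 and 5.88 CPM in MSC. Every line library lay above every library of both precursor groups, and ih_STC_BM lay below the other lines. Against MSC, Adamts7 was higher by 3.77 ± 0.50 in C12, 5.13 ± 0.53 in ih_CTC, 4.83 ± 0.53 in ih_DCTC, 3.01 ± 0.48 in ih_STC_BM and 4.14 ± 0.51 in ih_BCTC (edgeR adjusted p 1.8e-05, 9.98e-07, 1.88e-06, 0.000128 and 6.09e-06). Against MDSC it was higher by 8.36 ± 0.59 in C12, 9.71 ± 0.60 in ih_CTC and 9.41 ± 0.60 in ih_DCTC (edgeR adjusted p 3e-09, 7.02e-10 and 9.11e-10). Adamts7 overlaps Tbc1d2b on the opposite strand. Adamts12 measured 3.51 to 5.72 CPM in C12, 0.962 to 2.40 CPM in ih_CTC, 3.84 to 4.99 CPM in ih_DCTC, 0.147 to 4.66 CPM in ih_STC_BM, 4.88 to 8.14 CPM in ih_BCTC, and 7.39 and 5.62 CPM in MSC, and had 1 count in MDSC.

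Adamts10 and Adamts6, a pair of related proteases linked to fibrillin microfibrils, did not share the low MDSC level of most ADAMTS genes. Adamts10 measured 14.2, 15.5 and 29.2 CPM in C12, 33.9, 33.6 and 25.1 CPM in ih_CTC, 15.9, 26.2 and 37.4 CPM in ih_DCTC, 9.24 to 58.2 CPM in ih_STC_BM and 22.7 to 29.9 CPM in ih_BCTC, against 58.0, 65.2 and 63.3 CPM in MDSC and 33.7 and 29.0 CPM in MSC. It was lower than in MDSC in C12, at -1.66 ± 0.48 (edgeR adjusted p 0.00642). In ih_DCTC it was lower at -1.23 ± 0.47 (edgeR adjusted p 0.034), and leaving out ih_DCTC 1, ih_DCTC 2 or any 1 MDSC library ended that call (adjusted p 0.0546 to 0.138). With the intron share of each library as a covariate these differences became 0.21 in C12 and 0.22 in ih_DCTC. Adamts6 measured 9.23, 10.3 and 9.25 CPM in ih_CTC, 0.329 to 3.76 CPM in C12, 0.374 to 2.09 CPM in ih_DCTC, 0.293 to 2.23 CPM in ih_STC_BM and 0.901 to 1.63 CPM in ih_BCTC, against 7.29, 7.82 and 6.39 CPM in MDSC and 2.60 and 2.20 CPM in MSC. It was higher in ih_CTC than in the other 4 lines by 2.90 ± 0.51 (edgeR adjusted p 0.00125), without overlap. The Adamts6 difference between C12 and MDSC, -2.19 ± 0.76 (edgeR adjusted p 0.0189), ended without C12 1 or C12 2 (adjusted p 0.0768 to 0.0831) and was 0.81 with the intron share as a covariate. Adamts8, Adamts13, Adamts16, Adamts17, Adamts18, Adamts19 and Adamts20 were not tested, with at most 1.11 CPM in any library.

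Of the ADAMTS-like genes, Adamtsl4 set C12 apart. Adamtsl4, whose product binds fibrillin-1 and is known from the fibres that hold the eye lens, lies on chromosome 3 from 95676201 to 95687917. It measured 220, 323 and 152 CPM in C12, 38.2, 34.8 and 38.4 CPM in ih_CTC, 82.8, 37.0 and 60.6 CPM in ih_DCTC, 108, 52.5 and 15.1 CPM in ih_STC_BM, and 19.8, 33.0 and 27.7 CPM in ih_BCTC, against 7.62, 7.70 and 7.56 CPM in MDSC and 12.3 and 26.2 CPM in MSC. The C12 libraries lay above all 17 others. Adamtsl4 was higher in C12 by 2.42 ± 0.34 than in the other 4 lines (edgeR adjusted p 7.92e-05), by 4.92 ± 0.58 than in MDSC (edgeR adjusted p 1.5e-06) and by 3.59 ± 0.64 than in MSC (edgeR adjusted p 0.000341). It was also higher than in MDSC in ih_CTC, by 2.28 ± 0.52, and in ih_DCTC, by 2.98 ± 0.54 (edgeR adjusted p 0.00127 and 0.000141).

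Adamtsl3 measured 15.2, 13.5 and 25.5 CPM in C12 and 1.85, 1.01 and 0.733 CPM in ih_STC_BM, with 5.85 to 17.7 CPM in the other lines, 0.107 to 0.331 CPM in MDSC and 18.7 and 3.34 CPM in MSC. Against the other 4 lines it was higher in C12 by 1.78 ± 0.38 and lower in ih_STC_BM, at -3.08 ± 0.55 (edgeR adjusted p 0.00359 and 0.00136). Adamtsl5 separated MDSC from the rest, at 25.8 to 146 CPM in the lines, 0.601 to 0.663 CPM in MDSC and 65.2 and 25.1 CPM in MSC. It was higher than in MDSC by 6.78 ± 0.62 in C12, 6.19 ± 0.61 in ih_CTC and 6.36 ± 0.61 in ih_DCTC (edgeR adjusted p 6.41e-08, 1.49e-07 and 1.15e-07). Adamtsl1 measured 0.293 to 0.493 CPM in ih_STC_BM and at most 0.0961 CPM in the other lines, against 0 to 0.221 CPM in MDSC and 8.33 and 5.97 CPM in MSC. It was lower than in MSC in all 5 lines, by a log2 fold change of -4.12 ± 0.76 in ih_STC_BM (edgeR adjusted p 0.000651) and by at least 76.0-fold in ih_DCTC, with 0 counts (edgeR adjusted p 1.24e-05).

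**Figure D4:**
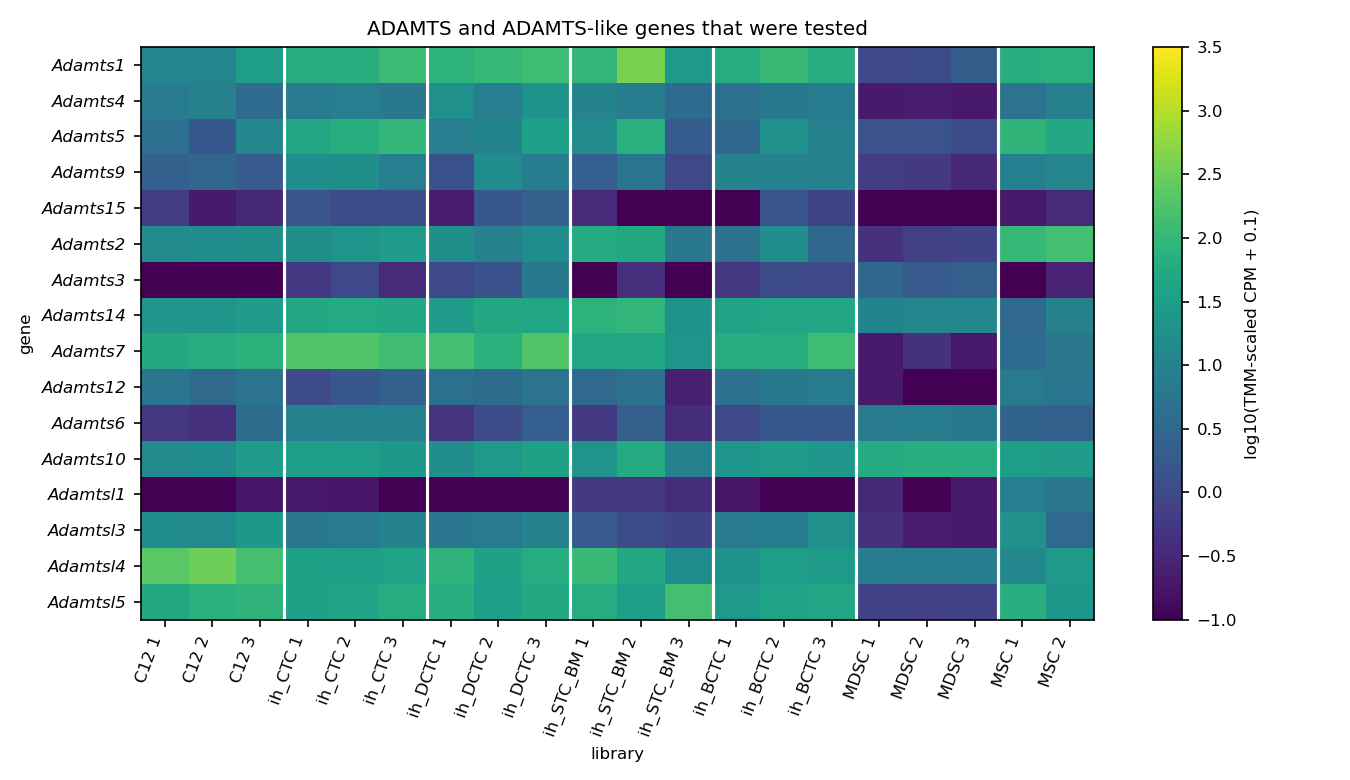
Levels of the 12 tested Adamts and 4 tested Adamtsl genes in the 20 libraries, as log10 of TMM-scaled CPM plus 0.1 in colour. Adamts7 and Adamts14 are brighter in all line libraries than in the precursors, Adamtsl4 is brightest in C12, and most rows are dark in MDSC apart from Adamts10.

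Counted over the 35 tested members, C12, ih_CTC and ih_DCTC had more calls against MDSC than against MSC. The same held over all tested genes. A number of calls also depends on how many libraries a group has and how far they differ. MDSC had 3 libraries that differed little and MSC had 2 that differed more, and the part of this in the counts was not tested. Beside each count stands the share of all 15779 tested genes called in that direction. Against MDSC, 18 members were higher and 7 lower in C12 (51.4 and 20% of members, against 31.3 and 30.5% of all genes). In ih_CTC 22 were higher and 5 lower (62.9 and 14.3%, against 28.2 and 27.1%). In ih_DCTC 23 were higher and 7 lower (65.7 and 20%, against 31.2 and 28.1%). Among those lower in ih_DCTC, Adamtsl1 had 0 counts there against 3 in MDSC (edgeR adjusted p 0.0497). Leaving out any 1 of 17 libraries ended that call (adjusted p 0.0502 to 0.216). The median log2 fold change over the tested members was 2.49 in C12, 3.49 in ih_CTC and 3.98 in ih_DCTC, against 0.03, 0.08 and 0.09 over all tested genes. With the intron share as a covariate the members lower than MDSC were 3 in each of these lines, Mmp8, Mmp9 and Mmp25, and the intron share of every MDSC library was above that of every line library. MDSC were themselves lower than MSC in 22 members and higher in 4 (62.9 and 11.4%, against 25.6 and 20.4% of all genes). The 4 higher ones were Mmp25, by 8.66 ± 0.87 on the log2 scale, Mmp9, by 4.84 ± 0.92, Mmp8, by 4.73 ± 0.89, and Adamts3 (edgeR adjusted p 5.28e-07, 0.000419, 0.000382 and 0.009). The Adamts3 call ended without MSC 1 (adjusted p 0.0866). With the intron share as a covariate the Mmp8 and Adamts3 differences became 0.028 and 0.90 (edgeR adjusted p 0.952 and 0.848), while Mmp9 and Mmp25 held.

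Against MSC, with its 2 libraries, the counts were smaller. In ih_STC_BM 7 members were higher and 10 lower (20 and 28.6%, against 14.8 and 17.4% of all genes), and in ih_BCTC 5 were higher and 12 lower (14.3 and 34.3%, against 15.9 and 20.8%). C12 had 5 higher and 14 lower (14.3 and 40%, against 14.7 and 18.4%), ih_CTC 4 higher and 9 lower (11.4 and 25.7%, against 14.7 and 19.9%), and ih_DCTC 9 higher and 8 lower (25.7 and 22.9%, against 16 and 18.1%). The shares of higher members in C12, ih_CTC and ih_BCTC were thus near or under that of all genes. Mmp8, Mmp12, Mmp23, Mmp27 and Adamtsl1 were the members lower than MSC in all 5 lines, and Adamts7 and Adamts14 those higher in all 5. The Mmp8 call in ih_STC_BM ended without MSC 2 (adjusted p 0.0596). These 5 comparisons share the 2 MSC libraries. Fitted without the other groups, ih_STC_BM had 4 higher and 6 lower and ih_CTC had 7 higher. Under the intron covariate ih_STC_BM had 16 lower. Without MSC 1, ih_DCTC had 5 higher, and without ih_BCTC 3, MSC 1 or MSC 2, ih_BCTC had 3 higher.

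Among the 5 lines, 24 of 35 members differed in the joint test (68.6%, against 33.2% of all genes), 13 of 16 Mmp, 1 of 3 Timp, 7 of 12 Adamts and 3 of 4 Adamtsl genes. The Timp gene was Timp2 (edgeR adjusted p 0.0167), and Timp1 and Timp3 had adjusted p 0.0523 and 0.173. Timp1 in C12 against the other 4 lines, at -1.31 ± 0.42 (edgeR adjusted p 0.0409), lost its call without any 1 of 13 libraries and under RLE or upper quartile scaling (adjusted p 0.0503 and 0.0527). Set against the other 4 lines, 12 members were called in ih_STC_BM (34.3%, against 17.1% of all genes), 10 in ih_CTC (28.6%, against 11.9%) and 9 in C12 (25.7%, against 16.3%). In ih_DCTC 8 were called, all of them higher (22.9%, against 7.39%), and in ih_BCTC 5 (14.3%, against 8.63%). The 8 of ih_DCTC were Mmp3, Mmp10, Mmp13, Mmp11, Mmp17, Mmp23, Adamts3 and Adamts4. Without ih_DCTC 3, which had the highest Mmp3 and Mmp13, the Mmp11, Mmp17, Mmp23 and Adamts4 calls ended, and Mmp11 and Adamts4 also ended without ih_DCTC 1. C12 had 4 and 5 calls without C12 1 and C12 2, and ih_CTC had 3, 2 and 6 without ih_CTC 1, 2 and 3. The ih_BCTC count was 1 without ih_BCTC 3 and 3 without any of 11 other libraries.

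**Figure D5:**
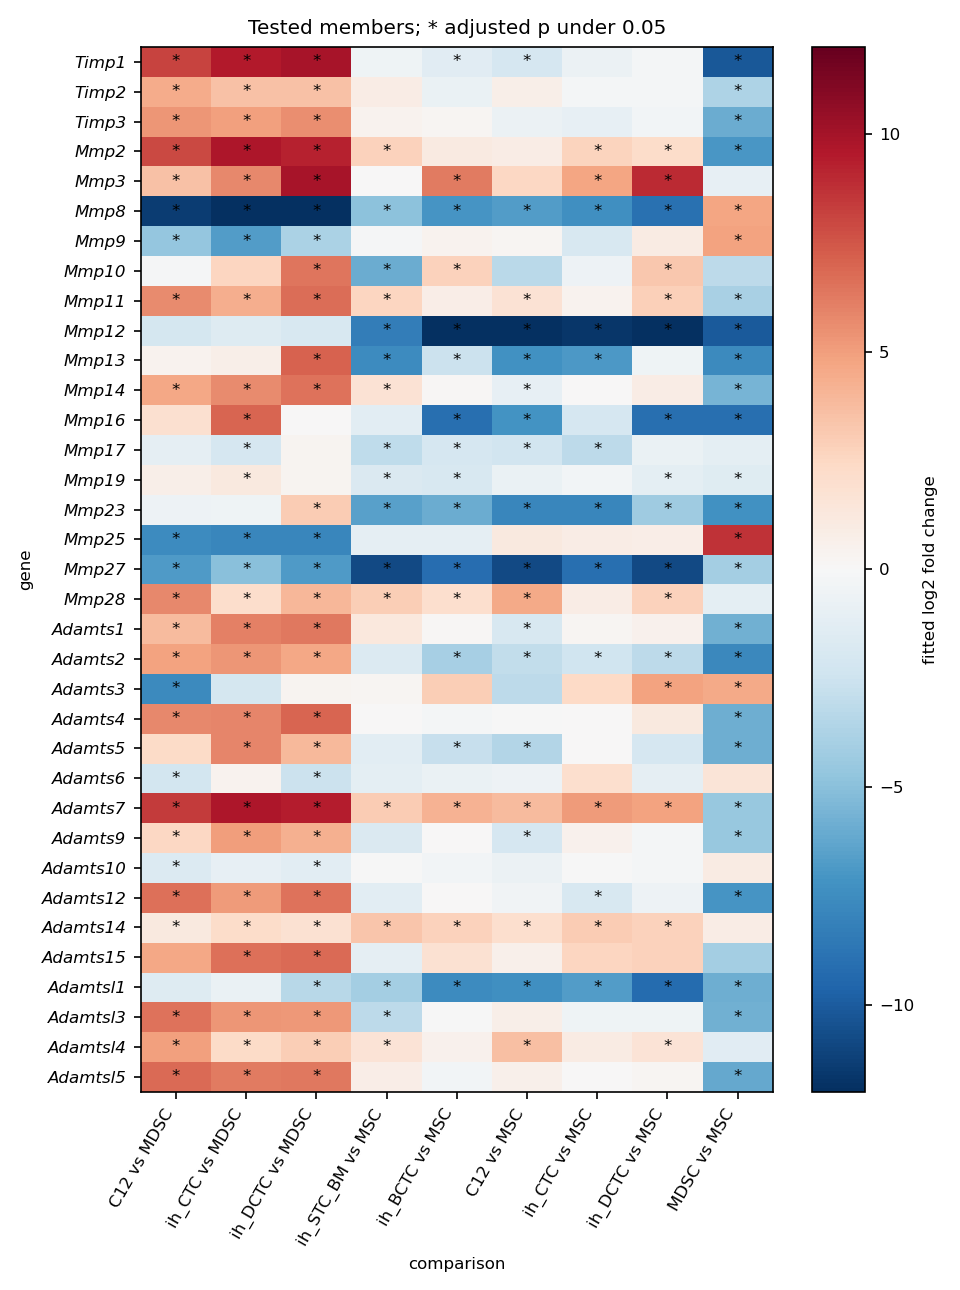
Fitted log2 fold changes of the 35 tested members in 9 comparisons, first group over second, in colour on a scale that ends at 12 in both directions, and a star marks an edgeR adjusted p under 0.05. Most cells of the 3 columns against MDSC are red, Mmp8, Mmp9, Mmp25 and Mmp27 are blue there, and the MDSC against MSC column is mostly blue. Values against a group with 0 counts depend on the prior count.

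Lists of genes that act with these proteases were counted in the same fit, and their counts stand against the shares of all genes. For C12 against MDSC these were 31.3% higher and 30.5% lower. For ih_CTC they were 28.2% higher and 27.1% lower, and for ih_DCTC 31.2% higher and 28.1% lower. Against MSC they were 14.7 to 16% higher and 17.4 to 20.8% lower over the 5 lines. In the plasminogen system, whose protease plasmin activates several MMPs, Plat (tissue plasminogen activator) averaged 57.2 ± 6.70 CPM in C12, 64.1 ± 7.42 CPM in ih_CTC, 82.1 ± 9.86 CPM in ih_DCTC, 36.1 ± 21.8 CPM in ih_STC_BM and 65.4 ± 38.4 CPM in ih_BCTC (SD, n = 3 each), against 1.001 ± 0.253 CPM in MDSC (SD, n = 3) and 5.98 ± 4.33 CPM in MSC (SD, n = 2). It was higher than in MSC by log2 fold changes of 2.58 in ih_STC_BM to 3.77 in ih_DCTC (edgeR adjusted p 0.00144 or less), and higher than in MDSC by 5.82 to 6.34 in C12, ih_CTC and ih_DCTC (edgeR adjusted p 1.25e-07 or less). Plau, the urokinase gene, was lower than in MSC in all 5 lines, with log2 fold changes of -4.67 to -2.90 (edgeR adjusted p 0.000937 or less). Against MDSC, C12 had 3 higher and 5 lower of the 8 tested genes of this system, ih_CTC had 2 higher and 3 lower, and ih_DCTC had 2 higher and 5 lower. Against MSC each line had 1 higher, Plat, and 3 to 5 lower. The median log2 fold change of this list was -1.35, -0.03 and -1.77 against MDSC in C12, ih_CTC and ih_DCTC. Plg, coding for plasminogen itself, had 0 counts in all libraries.

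Among 12 tested matrix substrates, C12 had 9 higher and 0 lower than MDSC, ih_CTC had 10 higher and 1 lower, and ih_DCTC had 9 higher and 1 lower. Their median log2 fold changes were 5.68, 6.89 and 6.19, against 0.03, 0.08 and 0.09 over all genes, and Col1a1, Col1a2 and Col3a1 in that list are also mesenchymal markers. Against MSC, 2 or 3 substrates were higher and 2 or 3 lower in each line, with medians of 0.04 to 1.325. Vcan, coding for the ADAMTS substrate versican, averaged 314 ± 66.9 CPM in C12 and 596 ± 144 CPM in ih_CTC (SD, n = 3 each), against 133 ± 5.28 CPM in MDSC (SD, n = 3) and 40.8 ± 35.1 CPM in MSC (SD, n = 2). It was higher than in MDSC by 1.24 in C12 and 2.16 in ih_CTC on the log2 scale (edgeR adjusted p 0.0302 and 0.00104). Thbs2, whose product thrombospondin-2 binds MMP-2 for its uptake, averaged 625 ± 83.4 CPM in C12, 1361 ± 168 CPM in ih_CTC and 1543 ± 771 CPM in ih_DCTC (SD, n = 3 each), against 1.67 ± 0.62 CPM in MDSC (SD, n = 3), log2 differences of 8.54, 9.66 and 9.84 (edgeR adjusted p 2.17e-09, 7.86e-10 and 7.29e-10). Reck, coding for a membrane-anchored MMP inhibitor, averaged 24.1 ± 7.78 CPM in ih_DCTC and 17.4 ± 7.48 CPM in ih_BCTC (SD, n = 3 each), against 4.93 ± 0.49 CPM in MSC (SD, n = 2), and was higher than MSC in these 2 lines (edgeR adjusted p 0.012 and 0.0355). Counting Thbs2 and Reck, 11 genes coding for activating or inhibiting partners were tested, and 5 were higher than MDSC in each of C12, ih_CTC and ih_DCTC, with 4, 3 and 4 lower and medians of -0.55, -0.71 and 0.09. Against MSC 0 to 3 were higher and 2 or 3 lower in each line. The 5 higher than MDSC in each were Thbs2, Bsg (the MMP inducer basigin), Lrp1 (an uptake receptor), Cd63 (a TIMP-1 binding protein) and the convertase gene Pcsk6. Of 10 tested ADAM and related metalloproteases, C12 had 2 higher and 5 lower than MDSC, ih_CTC 4 higher and 5 lower, and ih_DCTC 2 higher and 6 lower, with medians of -0.74, -0.92 and -1.55. Bmp1, coding for a procollagen C-proteinase, was higher by 3.30, 3.82 and 3.59 on the log2 scale (edgeR adjusted p 3.8e-07, 7.69e-08 and 1.48e-07). Against MSC each line had 0 or 1 higher and 5 to 7 lower. Among 9 other matrix-degrading proteases, C12 had 2 higher and 5 lower than MDSC, and ih_CTC and ih_DCTC each had 2 higher and 4 lower, with medians of -6.93, -1.09 and -0.15. Against MSC 6 or 7 of them were lower and 0 or 1 higher in each line, with medians of -5.47 to -4.13. Their summed level averaged 2983 to 3752 CPM in the lines, against 1888 CPM in MDSC and 23437 CPM in MSC. The neutrophil proteases Elane, Prtn3 and Ctsg were among the genes lower than MDSC, and Htra1 and Ctsl were the ones higher than MDSC.

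For 12 transcription factors known to act on MMP promoters, C12 had 1 higher and 9 lower than MDSC, ih_CTC 1 higher and 8 lower, and ih_DCTC 2 higher and 6 lower, with medians of -2.24, -2.43 and -1.65. Against MSC, 4 to 6 were higher in each line and 0 were lower, with medians of 1.02 to 1.76. Fosl1, a partner in AP-1, had a higher mean in each line than in either precursor. It averaged 194 ± 10.8 CPM in C12, 245 ± 9.51 CPM in ih_CTC and 426 ± 136 CPM in ih_DCTC (SD, n = 3 each). In ih_STC_BM it averaged 227 ± 148 CPM and in ih_BCTC 228 ± 11.6 CPM (SD, n = 3 each). The Fosl1 mean was 75.6 ± 5.22 CPM in MDSC (SD, n = 3) and 19.7 ± 15.3 CPM in MSC (SD, n = 2). It was higher than in MDSC by 1.36 in C12, 1.69 in ih_CTC and 2.49 in ih_DCTC on the log2 scale (edgeR adjusted p 0.0213, 0.00685 and 0.000392). Fos averaged 20.4 ± 33.7 CPM in C12, 28.6 ± 41.8 CPM in ih_CTC and 47.6 ± 66.03 CPM in ih_DCTC (SD, n = 3 each), against 2030 ± 50.4 CPM in MDSC (SD, n = 3). It was lower in these lines, at -6.63, -6.15 and -5.42 on the log2 scale (edgeR adjusted p 0.0145, 0.0216 and 0.0323), and Fosb was lower too, at -6.87, -6.39 and -7.16 (edgeR adjusted p 0.00131, 0.00213 and 0.00112). No relation between these factors and the protease genes was tested.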

How the data were processed

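RNA of 20 libraries was sequenced, and the authors deposited 1 table of RSEM expected counts per gene with an annotation and an alignment summary. STAR, RSEM 1.2.26 and DESeq2 are named per the submitters' processing notes, without their roles, and the labels state neither the genome build nor the strand setting. Of the deposited expected counts 8.37% were not whole, and all were rounded. With edgeR 4.0.16, genes passing filterByExpr (minimum count 10, minimum total 15) were kept (15779 of 43432), scaled by TMM and fitted with a robust quasi-likelihood model over all 20 libraries. Benjamini-Hochberg adjustment covered all tested genes within a comparison, with a threshold of 0.05. Errors of log2 fold changes are SE, derived as the absolute log2 fold change divided by the square root of its F statistic. A group with 0 counts was set to a floor of 3 counts over the group, and a fold against 1 to 3 counts has an exact 95% interval for counting error only, as floors do. Replicate numbers follow the order of the samples, since the labels give none. Any member could be named, and tested members averaging at least 5 CPM in a group are given with values. The symbol rule and the gene lists were chosen with earlier results of these data known, though the rule itself uses no measured value. Promoter windows come from RefSeq on GRCm38.p6, with a window for 36 of the 51 members, and gene coordinates are those of the deposited annotation. Exon lengths, used for levels per kb, are the union of all exons of a gene in GENCODE M21. In M21, 30 of the 51 members have the same gene coordinates as in the deposited annotation. Alternatives were other scalings, no filter, DESeq2, only the groups compared, the intron share as a covariate and leaving out each library.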

Additional observations from a re-analysis of the deposited data

How the results depend on the processing

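No paired analysis was possible because the labels give no replicate numbers. RLE and upper quartile scaling kept every count of members called within 1.5 times, as did DESeq2 1.42.0 in the 9 pair comparisons it was run on. The all-gene median shifted under RLE by -0.14 in ih_CTC and -0.13 in ih_DCTC against MDSC, and under upper quartile scaling by 0.27 in C12, 0.17 in ih_CTC and 0.22 in ih_DCTC against MDSC and -0.13 in MDSC against MSC (log2). With the intron share as a covariate, the members lower than MDSC were 3 in each of C12, ih_CTC and ih_DCTC in place of 7, 5 and 7, the members lower in ih_STC_BM than MSC were 16 in place of 10, and those higher in MDSC than MSC were 2 in place of 4. Under that covariate, Adamts6 in C12 against MDSC became 0.81, Adamts10 in C12 against MDSC 0.21, and Adamts10 in ih_DCTC against MDSC 0.22. With only the groups compared in the fit, ih_STC_BM against MSC had 4 higher and 6 lower and ih_CTC against MSC had 7 higher. The ih_STC_BM calls that ended in that fit included Mmp2, Mmp14 and Adamtsl4 (higher) and Mmp8, Mmp17 and Adamtsl3 (lower). With no filter, ih_BCTC against the other 4 lines had 3 calls. After the data were seen, 2 alternatives were added. Summing the MDSC libraries to 1 leaves 1 MDSC library, and some calls against MDSC then kept their direction but did not pass. In C12 these were Adamts6, Adamts9, Adamts14 and Mmp3. In ih_CTC they were Adamtsl4, Mmp17, Mmp19 and Mmp28, and in ih_DCTC Adamts5, Adamts10, Adamts14 and Adamtsl1. Some calls in other comparisons ended too, and the count fell in ih_BCTC against the other 4 lines. Leaving out line libraries under 3% intron share gave 9 calls there, and 7 members higher in MDSC than MSC. For these changes the cause was not tested. Leaving out 1 library at a time gave, for higher and lower members, 15 to 19 and 6 to 8 in C12, 21 to 23 and 4 to 7 in ih_CTC, and 23 to 24 and 5 to 7 in ih_DCTC against MDSC. Against MSC it gave 5 to 8 and 8 to 12 in ih_STC_BM, 3 to 6 and 8 to 12 in ih_BCTC, 4 to 6 and 10 to 14 in C12, 3 to 5 and 7 to 10 in ih_CTC, 5 to 11 and 7 to 9 in ih_DCTC, and 3 to 5 and 22 to 23 in MDSC. Against the other 4 lines it gave 4 to 13 calls in C12, 2 to 12 in ih_CTC, 4 to 10 in ih_DCTC, 10 to 14 in ih_STC_BM and 1 to 7 in ih_BCTC, and 17 to 26 among the lines. Adamts1 in ih_STC_BM against the other 4 lines ranged from -0.0013 without ih_STC_BM 2 to 2.03 without ih_STC_BM 3. With 2 MSC libraries, a call against MSC can rest on 1 of them. Depth limits genes near 0 counts, such as Mmp7 and Mmp20, to upper limits.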
